A study of Mus musculus with 8 samples.

Results

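The 39 genes described here carry a cell from the G1 phase into S phase and copy its DNA. They were listed by gene symbol, from the D- and E-type cyclins and their kinases to the enzymes that join Okazaki fragments. The list was made with earlier results of these data known. All 39 were among the 49315 genes listed in each library and among the 14272 genes tested, those at 1 TPM (transcripts-per-million, a level per length of transcript) or more in at least 4 libraries. RNA came from immortalized mouse embryonic fibroblasts, connective tissue cells of the embryo grown in culture and made to divide without limit, of 2 genotypes: Opa1-/- (4 libraries) and Opa1-/- + OPA1, the same genotype with OPA1 put back (4 libraries). No treatment was given to either group. Both groups therefore carry the Opa1 deletion, and the labels do not name the vector, the species of the OPA1 sequence, a clone number or separate cultures. Spread between libraries may thus be technical only, and the p-values measure nothing beyond it. OPA1 is a dynamin-family GTPase needed for the fusion of inner mitochondrial membranes and for the form of cristae, and the stated purpose was to learn what its loss does to the transcriptome.

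As background, D-type cyclins with CDK4 or CDK6, and then E-type cyclins with CDK2, phosphorylate the retinoblastoma protein RB1, which holds E2F transcription factors in check. E2F factors drive many of the genes needed for S phase. In G1 the origin recognition complex, CDC6 and CDT1 load the MCM helicase onto DNA, geminin blocks CDT1 once S phase begins, and CDC45 and the GINS complex turn the loaded helicase into an active one. DNA polymerases, the sliding clamp PCNA, its loader RFC, the single-strand binding protein RPA, ribonucleotide reductase and the flap nuclease and ligase then copy and join the strands.

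Promoter sequences are shown first because the E2F site is the element by which many of these genes are known to be turned on together. RefSeq windows on GRCm38.p6, from 250 bases before to 50 bases after the annotated start, were found for 30 of the 39 genes, and Ccnd1, Ccnd2, Ccne2, Rb1, Gmnn, Mcm4, Gins1, Gins2 and Pole had none. The E2F-type letters TTTCCCGC, TTTGGCGC, TTTCGCGC and TTTGCCGC were searched on both strands. A match stood in 13 of the 30 genes (43.3%), against 704 of 27025 genes with a window (2.60%). The CCAAT box, searched as CCAAT, stood in 20 of the 30 (66.7%) against 41.1% of all genes, and the CHR element of mitotic promoters, TTTGAA, in 4 of the 30 (13.3%) against 20.2%. The 4 windows below belong to the genes with an E2F-type match that were called lower in Opa1-/- libraries. Each is printed on its gene's strand, with the E2F-type letters or their reverse complement in capitals.
Pola1, chrX:93632106-93632405, minus strand: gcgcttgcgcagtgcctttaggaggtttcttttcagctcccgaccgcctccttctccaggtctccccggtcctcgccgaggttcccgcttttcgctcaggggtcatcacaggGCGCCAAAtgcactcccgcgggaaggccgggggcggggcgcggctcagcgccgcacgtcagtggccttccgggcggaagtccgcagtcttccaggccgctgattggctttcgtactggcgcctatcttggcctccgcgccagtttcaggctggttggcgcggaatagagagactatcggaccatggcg
Mcm5, chr8:75109259-75109558, plus strand: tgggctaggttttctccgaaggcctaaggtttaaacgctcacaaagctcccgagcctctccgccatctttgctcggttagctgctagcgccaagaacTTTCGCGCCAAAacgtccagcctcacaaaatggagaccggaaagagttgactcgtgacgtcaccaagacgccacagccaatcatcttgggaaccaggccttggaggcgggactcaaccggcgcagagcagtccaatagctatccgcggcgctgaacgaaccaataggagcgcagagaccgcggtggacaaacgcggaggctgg
Orc1, chr4:108579204-108579503, plus strand: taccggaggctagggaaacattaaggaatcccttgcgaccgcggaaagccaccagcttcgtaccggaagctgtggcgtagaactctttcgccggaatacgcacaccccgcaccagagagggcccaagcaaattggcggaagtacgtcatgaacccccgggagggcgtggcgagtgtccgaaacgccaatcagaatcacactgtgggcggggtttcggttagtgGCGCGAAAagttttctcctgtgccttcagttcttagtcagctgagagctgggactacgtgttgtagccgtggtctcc
Cdt1, chr8:122567765-122568064, plus strand: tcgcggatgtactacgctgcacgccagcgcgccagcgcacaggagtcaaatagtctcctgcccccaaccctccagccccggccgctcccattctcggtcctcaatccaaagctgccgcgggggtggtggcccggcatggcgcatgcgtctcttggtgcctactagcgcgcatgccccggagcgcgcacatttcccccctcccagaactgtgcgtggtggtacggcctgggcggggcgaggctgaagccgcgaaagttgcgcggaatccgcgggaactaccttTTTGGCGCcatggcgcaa
The match in Pola1 began 138 bases before the annotated start and that in Orc1 27 bases before it. In Mcm5 a pair of overlapping matches on opposite strands began 153 and 149 bases before the start. In Cdt1 the match lay 32 bases after the start. Of the 13 genes with a match, 4 were called lower and 0 higher, with a median log2 difference of -0.08, where 16.8% of all genes tested were called lower and 16.2% higher. These 4 genes lie on chromosomes X, 8 and 4, which were lower as a whole. With chromosome medians removed, as given below, Pola1 alone of the 4 stayed called. Of the 17 with a window and no match, 8 were called lower and 0 higher, with a median of -0.11. A match describes letters in a window, and binding was not measured.

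**Figure D1:**
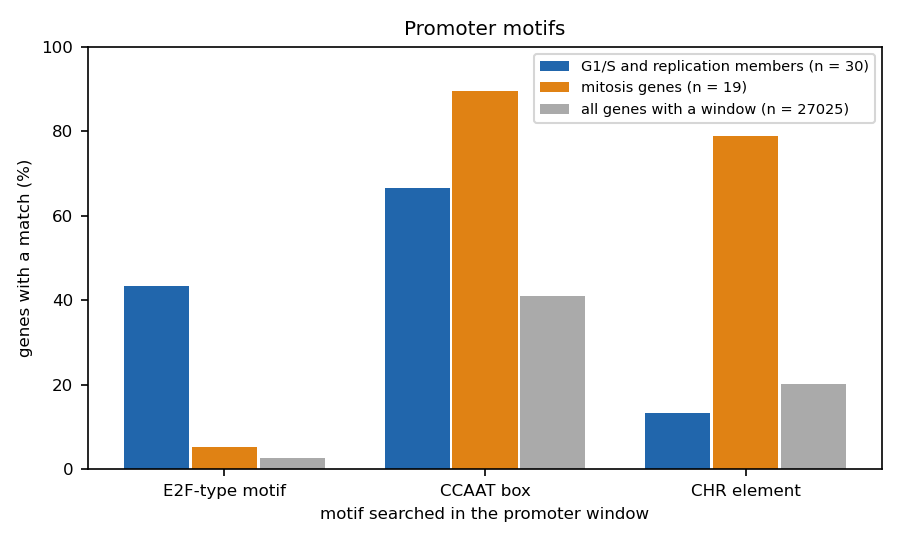
Share of genes, in percent, whose 300-base promoter window held each motif, for the 30 G1/S and replication genes with a window, 19 mitosis genes and all 27025 genes with a window. E2F-type letters stood in 43.3% of the first group and 5.26% of the mitosis genes, and the CHR element in 13.3% and 78.9%.

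The libraries held an estimated 52.9 M to 57.8 M assigned reads each (M, 1000000 reads), recovered from the steps of the TPM values. The lowest estimated read number for any of the 39 genes in any library was 380, for E2f2. Opa1 itself did not separate the labels. It stood at 14.8, 14.7, 13.7 and 12.5 scaled TPM in Opa1-/- libraries and 15.6, 14.6, 14.5 and 14.5 in reconstituted ones (log2 difference -0.09, 95% interval -0.22 to 0.05, adjusted p = 0.305), so every direction below is that of libraries labelled Opa1-/- against libraries labelled Opa1-/- + OPA1. Of 7 fibroblast markers 6 reached 1 TPM, and Pdgfra did not. The summed fibroblast markers ranged from 2510 to 2811 scaled TPM in Opa1-/- and from 2916 to 2985 in reconstituted libraries, without overlap. Of the 6, Col1a1 (log2 difference -0.52, adjusted p = 0.0019), Col1a2 (-0.56, adjusted p = 0.00051) and Pdgfrb (-0.45, adjusted p = 0.0015) were lower, and Thy1, Vim and Fn1 did not pass the test. Endothelial markers (0 of 5) and skeletal muscle markers (0 of 4) did not reach it, and of the others Cdh1, Cd68, Cd14, Tubb3 and Snap25 did. The summed epithelial markers ranged from 13.3 to 16.5 in Opa1-/- and from 7.67 to 9.68 in reconstituted libraries, the immune markers from 40.0 to 52.2 and from 57.3 to 62.2, and the neural markers from 16.7 to 22.1 and from 23.4 to 26.1. Mitochondrial DNA-encoded genes took 2.67% to 3.35% of TPM in Opa1-/- and 5.33% to 5.77% in reconstituted libraries. Libraries numbered 3 stood apart in each group: Gm23935, Gm24270, Gm42418 and Mir6236 together took 11.0% of TPM in Opa1-/- library 3 against 14.9% to 15.5% in the other 3, and 5.29% in reconstituted library 3 against 13.6% to 14.2%. The part of these shifts in the results below was not tested.

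Libraries labelled Opa1-/- had slightly lower levels of many of these genes, with a few moving further and a pair moving the other way. Of the 39 genes, 15 were lower, 2 were higher (Ccnd2 and Gins1) and 22 did not pass the test. The difference is on log2(scaled TPM + 1), which understates the change of low genes, and a gene was called at a Benjamini-Hochberg adjusted p below 0.05 in limma-trend over all 14272 genes. Across all genes tested 33.0% were called, 16.2% higher and 16.8% lower, so the share of the 39 called higher (5.13%) was below the background and the share called lower (38.5%) was above it. The median difference was -0.10 over the 39 genes and -0.0012 over all genes, and 31 of the 39 were below 0. The changes were small. No member reached a 2-fold change, against 196 of all genes tested, and the median size of the difference was 0.11 against 0.16. The libraries of the groups did not overlap for 19 genes on the lower side and 3 on the higher, where 18.9% and 17.4% of all genes did so. Summed over the 39 genes, the level was 4562 ± 23.7 scaled TPM (SD, n = 4) in Opa1-/- and 4779 ± 34.9 in reconstituted libraries.

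6 calls held under each of the 24 other ways of processing that were run: Ccnd2 and Gins1 higher, and Ccnd3, Cdk6, Pola1 and Rrm2 lower. The number called lower fell to 9 without reconstituted library 2, and to 8 on TPM as deposited, where E2f1, Rb1, Cdt1, Mcm2, Mcm4, Gins2 and Rrm1 missed the threshold (adjusted p 0.0531 to 0.299). Of all 14272 genes tested, 1529 were lower on TPM as deposited, against 2394 as first run. Counts over all genes for the other settings in this paragraph are not given. Without both libraries numbered 3, 9 of the 39 genes were lower and 2 higher, and E2f1, Rb1, Cdt1, Mcm4, Gins2 and Rrm1 missed the threshold (adjusted p 0.0612 to 0.152). Correcting every library for a trend over exon length and GC gave 4 higher and 12 lower, and a block for the replicate number gave 2 higher and 12 lower. In a bulk culture, fewer cells in a phase and less RNA per cell cannot be told apart.

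**Figure D2:**
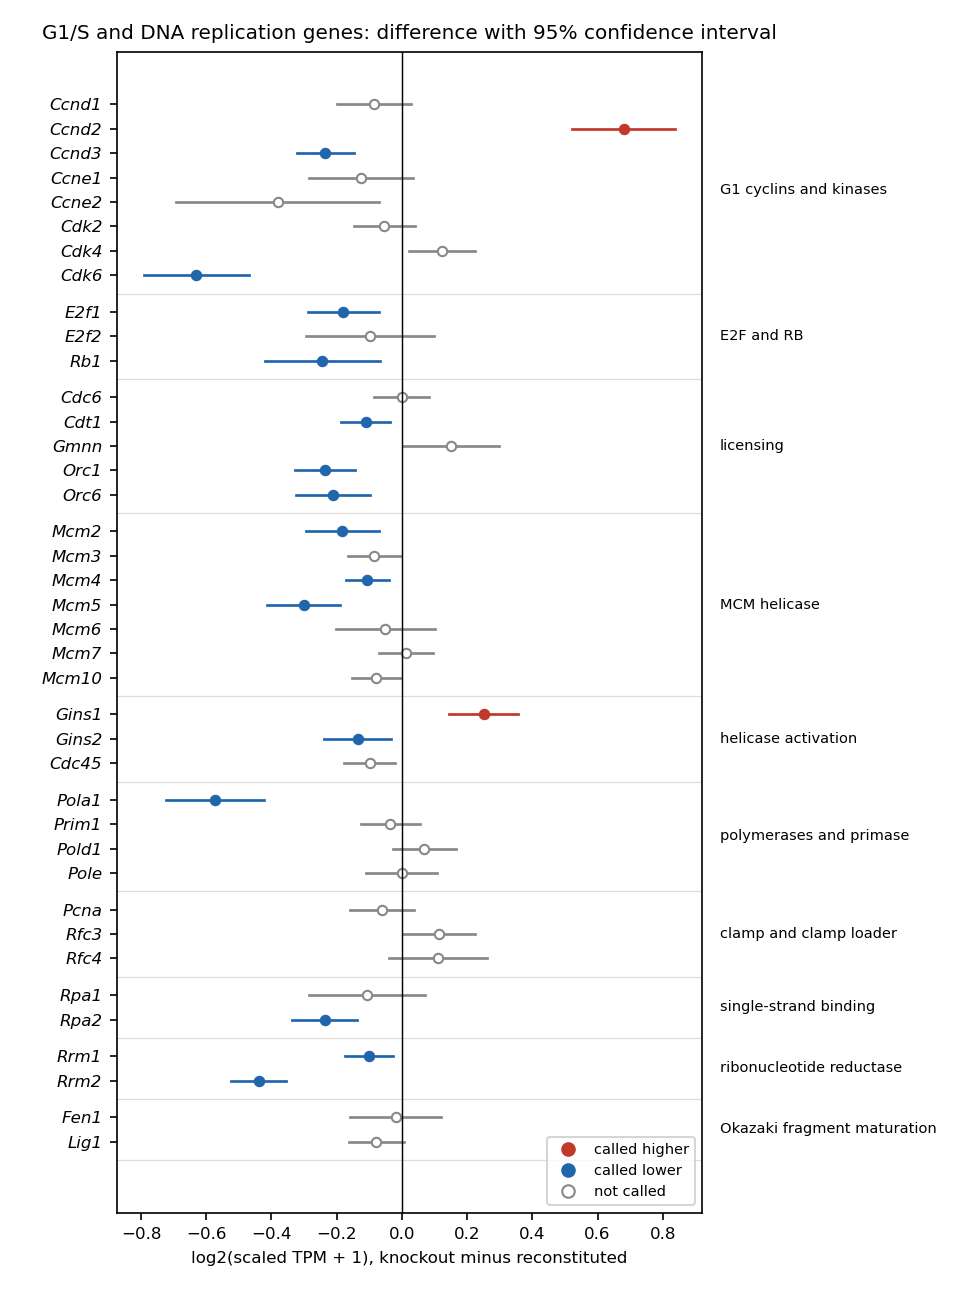
Difference between Opa1-/- and reconstituted libraries for each of the 39 genes, as log2(scaled TPM + 1) with its 95% confidence interval, grouped by role. Filled points passed the test (15 blue, lower, and 2 red, higher), and the open points did not. Ccnd2, Cdk6, Pola1 and Rrm2 lie farthest from 0 among the called genes.

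The G1 cyclins and kinases showed the widest changes, in both directions. Ccnd2, which encodes cyclin D2 (chr6:127125162-127152193, minus strand), was at 61.3, 57.6, 73.0 and 60.8 scaled TPM in Opa1-/- and at 36.9, 39, 40.0 and 39.9 in reconstituted libraries. Every Opa1-/- library was above every reconstituted one, and the mean was 62.3% higher (log2 difference 0.68, SE 0.07, adjusted p = 0.00018). Cyclin D3 moved the other way. Ccnd3 fell from 20.1 ± 0.414 to 16.9 ± 0.307 (log2 difference -0.23, SE 0.04, adjusted p = 0.0019). Cyclin D1, the most abundant of the 3, did not pass the test: Ccnd1 was at 313, 309, 345 and 293 in Opa1-/- and 328, 338, 340 and 329 in reconstituted libraries, with overlapping groups (log2 difference -0.09, adjusted p = 0.227, and -0.13 with adjusted p = 0.0323 without Opa1-/- library 3). Of its exon bases 23.4% overlap Oraov1 on the opposite strand. The sum of the 3 D-type cyclin mRNAs was 395 ± 28.0 in Opa1-/- and 393 ± 7.53 in reconstituted libraries, while the share of Ccnd2 in that sum was 16.0% ± 0.778 against 9.91% ± 0.286. Ccnd2 took 15% to 16.8% of it in Opa1-/- libraries and 9.59% to 10.3% in reconstituted ones, without overlap.

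The kinase partners of the D-type cyclins differed from each other as well. Cdk6 (chr5:3341485-3531008, plus strand) was at 12.9, 11.8, 15.2 and 13.4 in Opa1-/- and 20.5, 20.3, 21.7 and 22.0 in reconstituted libraries. All 4 Opa1-/- values lay below all 4 others, and the mean was 36.9% lower (log2 difference -0.63, SE 0.07, adjusted p = 0.00029). Cdk4, the most abundant of the 39 transcripts, was at 647, 678, 648 and 728 in Opa1-/- and 608, 627, 618 and 625 in reconstituted libraries. Its groups did not overlap, yet it missed the threshold (log2 difference 0.12, adjusted p = 0.0636), and it passed without Opa1-/- library 3 (0.0449) or library 4 (0.0463) and with the exon length and GC trend removed (0.0489). Of its exon bases 19.7% overlap Tspan31 on the opposite strand. Cdk6 made up 1.94% ± 0.255 of the summed Cdk4 and Cdk6 level in Opa1-/- and 3.30% ± 0.128 in reconstituted libraries.

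The E-type cyclins, which act with CDK2 at the entry into S phase, did not pass the test. Ccne2 was at 39.2, 41.6, 38.3 and 25.3 in Opa1-/- and 46.7, 42.9, 46.5 and 50.3 in reconstituted libraries (log2 difference -0.38, SE 0.14, adjusted p = 0.0621). The groups did not overlap, and Opa1-/- library 4 was far below the other 3. Without that library Ccne2 was called lower (-0.22, adjusted p = 0.0139), as it was without Opa1-/- library 2 (-0.45, adjusted p = 0.0468). Ints8 overlaps 17.4% of its exon bases on the opposite strand. Ccne1 was at 33.2 ± 1.85 and 36.4 ± 3.51 (adjusted p = 0.205). Cdk2 was at 66.4 ± 3.32 and 68.8 ± 1.09 (log2 difference -0.05, adjusted p = 0.365), and reached -0.09 with adjusted p = 0.0396 without Opa1-/- library 4.

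**Figure D3:**
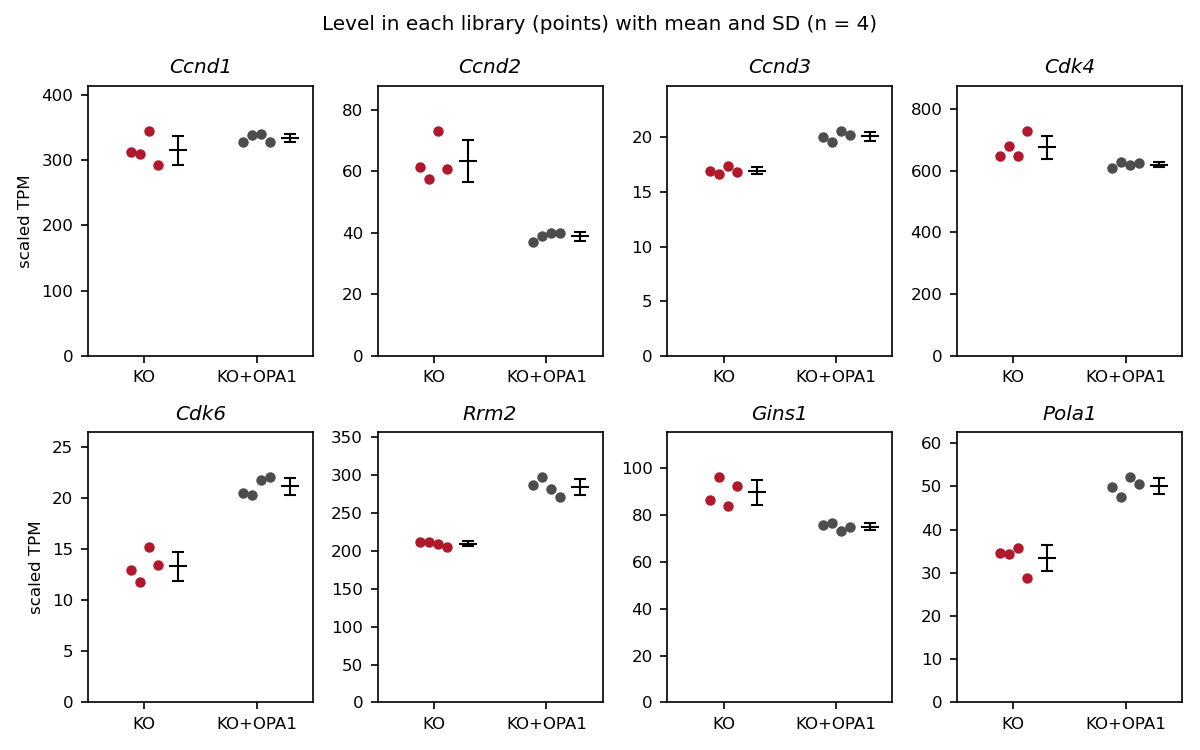
Level of 8 of the genes in each library, in scaled TPM from 0, with the mean and SD of each group of 4 (KO, Opa1-/-; KO+OPA1, reconstituted). Ccnd2 and Gins1 lie higher in Opa1-/- libraries, Ccnd3, Cdk6, Rrm2 and Pola1 lower, and Ccnd1 overlaps between groups.

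Among the E2F and RB genes, E2f1 and Rb1 were lower and E2f2 did not pass the test. E2f1, an activator of S phase genes, was at 65.2, 67.1, 60.0 and 59.7 in Opa1-/- and 70.0, 74.1, 69.8 and 71.7 in reconstituted libraries. The highest Opa1-/- value was below the lowest reconstituted one (log2 difference -0.18, SE 0.05, adjusted p = 0.0187), and the call was lost without reconstituted library 2 (adjusted p = 0.0561). Rb1 was among the lowest of the 39 transcripts, at 3.87 ± 0.319 and 4.77 ± 0.403 (log2 difference -0.24, SE 0.08, adjusted p = 0.0398). Of its exon bases 14.9% overlap Lpar6 and Rcbtb2 on the opposite strand. Its call was lost under the replicate block (adjusted p = 0.0653) and without any one of Opa1-/- libraries 1 and 4 and reconstituted libraries 2, 3 and 4 (adjusted p 0.0607 to 0.11). E2f2 was at 4.63 ± 0.451 and 5.03 ± 0.513 (adjusted p = 0.423).

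Of the 5 licensing genes, Orc1, Orc6 and Cdt1 were lower, and Cdc6 and Gmnn did not pass the test. Orc1, an ATP-binding subunit of the origin recognition complex, was at 21.0, 21.3, 21.4 and 21.6 in Opa1-/- and 24.4, 25.1, 25.0 and 26.7 in reconstituted libraries. The groups were well apart (log2 difference -0.24, SE 0.04, adjusted p = 0.0026). Gm12743 overlaps 10.8% of the exon bases of Orc1 on the opposite strand. Orc6, the smallest subunit, fell from 103 ± 2.82 to 88.9 ± 5.79 (log2 difference -0.21, adjusted p = 0.0114). Cdt1, which brings the MCM helicase to origins, fell from 87.0 ± 1.75 to 80.5 ± 1.60 (log2 difference -0.11, adjusted p = 0.0308). The Cdt1 call was lost under the replicate block (adjusted p = 0.0581) and without any one of Opa1-/- libraries 1, 2 and 3 and reconstituted libraries 2, 3 and 4 (adjusted p 0.0501 to 0.0949). Cdc6, the loader's ATPase, was at 32.3, 31.1, 32.1 and 33.2 in Opa1-/- and 31.2, 32.5, 32.4 and 32.7 in reconstituted libraries. Its means were equal to 3 digits at 32.2, with a 95% interval of -0.08 to 0.08 for the log2 difference. Gmnn, the inhibitor of CDT1, was at 120 ± 8.08 and 108 ± 8.11 (log2 difference 0.15, adjusted p = 0.107), and was called higher without reconstituted library 2 (0.20, adjusted p = 0.0437). The ratio of Gmnn to Cdt1 ranged from 1.41 to 1.59 in Opa1-/- and from 1.14 to 1.38 in reconstituted libraries, without overlap.

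Of the 7 MCM genes 3 were lower and 4 did not pass the test, and differences between them were not tested. MCM2 to MCM7 form a single ring, and their mRNAs were of similar level per length, with the highest 1.80 ± 0.0270 times the lowest in Opa1-/- and 1.70 ± 0.0256 times in reconstituted libraries. Mcm5 was at 196, 189, 194 and 168 in Opa1-/- and 230, 231, 229 and 229 in reconstituted libraries. The groups were far apart, with Opa1-/- library 4 the lowest (log2 difference -0.30, SE 0.05, adjusted p = 0.0019). With chromosome medians removed, as given below, none of Mcm2 to Mcm7 was called, and Mcm5 was at -0.11 (adjusted p = 0.0912). Mcm2 fell from 220 ± 1.19 to 194 ± 13.0 (log2 difference -0.18, adjusted p = 0.0198), a call lost without reconstituted library 3 (adjusted p = 0.0552). Mcm4 fell from 170 ± 1.58 to 157 ± 1.40 (log2 difference -0.11, adjusted p = 0.021), a call lost without any one of Opa1-/- libraries 1 and 2 and reconstituted libraries 1, 2 and 4 (adjusted p 0.0552 to 0.0648). The other 3 ring subunits did not pass the test. Mcm3 was at 270 ± 8.14 and 286 ± 4.76 without overlap (log2 difference -0.09, adjusted p = 0.0894), and was called lower without Opa1-/- library 4 (adjusted p = 0.0245). Mcm6 was at 199 ± 18.0 and 206 ± 8.98 (log2 difference -0.05, adjusted p = 0.602) and Mcm7 at 283 ± 7.46 and 281 ± 8.42 (log2 difference 0.01, adjusted p = 0.835). The longest Mcm7 transcript shares 26.0% of its 50-base words with another annotated gene, so the reads of Mcm7 may be split. Summed over Mcm2 to Mcm7, the level was 1290 ± 44.4 in Opa1-/- and 1392 ± 15.4 in reconstituted libraries. Mcm10, which is no part of the ring and helps to start its unwinding, was at 38.6 ± 0.384 and 40.8 ± 0.567 without overlap (adjusted p = 0.0953).

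Of the helicase activators, Gins1 was higher, Gins2 was lower with a weak call, and Cdc45 did not pass the test. Gins1 (chr2:150905400-150931280, plus strand), a subunit of the GINS complex, was at 86.6, 96.1, 83.8 and 92.3 in Opa1-/- and 75.8, 76.5, 73.5 and 74.8 in reconstituted libraries. Every Opa1-/- value was above every reconstituted one, and the mean was 19.4% higher (log2 difference 0.25, SE 0.05, adjusted p = 0.0038). Gins2, another subunit of the same complex, fell from 49.2 ± 0.881 to 44.8 ± 2.53 (log2 difference -0.14, adjusted p = 0.0477). That call was lost without any one of Opa1-/- libraries 1, 3 and 4 and without any one reconstituted library (adjusted p 0.0602 to 0.112), and 67.3% of the exon bases of Gins2 overlap Gse1 on the opposite strand, whose reads cannot be told apart without strand. With chromosome medians removed, as given below, the sign of Gins2 turned, to 0.05 (adjusted p = 0.41). The ratio of Gins1 to Gins2 was 2.01 ± 0.137 in Opa1-/- and 1.53 ± 0.0105 in reconstituted libraries. Cdc45 was at 70.4 ± 1.31 and 75.5 ± 1.97 without overlap (log2 difference -0.10, adjusted p = 0.0537) and was called lower without Opa1-/- library 4 (adjusted p = 0.0346).

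Of the polymerases and primase, only Pola1 passed the test. Pola1 (chrX:93304767-93632155, minus strand) encodes the catalytic subunit of DNA polymerase alpha, which with primase starts each new strand. It was at 34.5, 34.4, 35.8 and 28.9 in Opa1-/- and 49.8, 47.6, 52.0 and 50.5 in reconstituted libraries. No Opa1-/- library came near the reconstituted ones, and the mean was 33.2% lower (log2 difference -0.57, SE 0.07, adjusted p = 0.00031). Its promoter window holds an E2F-type match, in capitals among the printed windows. The median log2 difference of all genes on X was -0.36. With chromosome medians removed Pola1 was at -0.23 (adjusted p = 0.0296). Prim1, the catalytic primase subunit that works with it, was at 78.1 ± 3.32 and 80.0 ± 1.90 (log2 difference -0.04, 95% interval -0.13 to 0.06). Pold1 and Pole, the catalytic subunits of the lagging and leading strand polymerases, were at 74.3 ± 3.59 and 70.8 ± 1.73 (adjusted p = 0.261) and at 31.6 ± 1.70 and 31.6 ± 1.02 (adjusted p = 0.993).

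None of the clamp and clamp loader genes passed the test. Pcna, the second most abundant of the 39, was at 404, 430, 404 and 450 in Opa1-/- and 434, 450, 435 and 440 in reconstituted libraries, with overlapping groups (log2 difference -0.06, 95% interval -0.16 to 0.04, adjusted p = 0.329). Its transcript shares 31.8% of its 50-base words with Pcna-ps2, so its level is uncertain. Rfc3 was at 53.4 ± 3.15 and 49.2 ± 1.63 (log2 difference 0.11, adjusted p = 0.103) and Rfc4 at 74.6 ± 6.74 and 68.9 ± 3.32 (log2 difference 0.11, adjusted p = 0.235). Eif4a2 overlaps 12.7% of the exon bases of Rfc4 on the opposite strand.

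Of the single-strand binding genes, Rpa2 was lower and Rpa1 did not pass the test. Rpa2 was at 49.2, 51.0, 47.6 and 49.8 in Opa1-/- and 60.0, 59.3, 54.3 and 60.1 in reconstituted libraries, apart even at reconstituted library 3, the lowest of its group (log2 difference -0.24, SE 0.04, adjusted p = 0.0036). Rpa1, the large subunit, was at 92.8, 90.7, 95 and 72.6 in Opa1-/- and 93.1, 91.8, 95.1 and 96.7 in reconstituted libraries (log2 difference -0.11, adjusted p = 0.334). Its Opa1-/- library 4 lay below the other 7 libraries, which were close together.

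Both subunits of ribonucleotide reductase, the enzyme that makes deoxynucleotides, were lower, by different amounts. Rrm2 (chr12:24708241-24714146, plus strand) encodes the small subunit, whose level is known to rise in S phase. It was at 212, 212, 209 and 205 in Opa1-/- and 288, 297, 282 and 272 in reconstituted libraries. The gap between groups was several times the spread within either, and the mean was 26.4% lower (log2 difference -0.44, SE 0.04, adjusted p = 6.6e-05). Rrm1, the large subunit, fell from 121 ± 2.24 to 113 ± 2.25 (log2 difference -0.10, SE 0.03, adjusted p = 0.0409). Its call was lost under the replicate block (adjusted p = 0.0612), with the exon length and GC trend removed (log2 difference -0.02, adjusted p = 0.744) and without any one of Opa1-/- libraries 1 and 2 and the 4 reconstituted libraries (adjusted p 0.0634 to 0.12). The ratio of Rrm2 to Rrm1 was 1.86 ± 0.0269 in Opa1-/- and 2.35 ± 0.107 in reconstituted libraries. Of the genes that finish Okazaki fragments, the flap nuclease gene Fen1 was at 32.2 ± 2.82 and 32.6 ± 0.755 (adjusted p = 0.844) and the ligase gene Lig1 at 136 ± 4.20 and 144 ± 3.91 (log2 difference -0.08, adjusted p = 0.138). Tmem258 and Gm10143 together overlap 84.2% of the exon bases of Fen1 on the opposite strand.

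**Figure D4:**
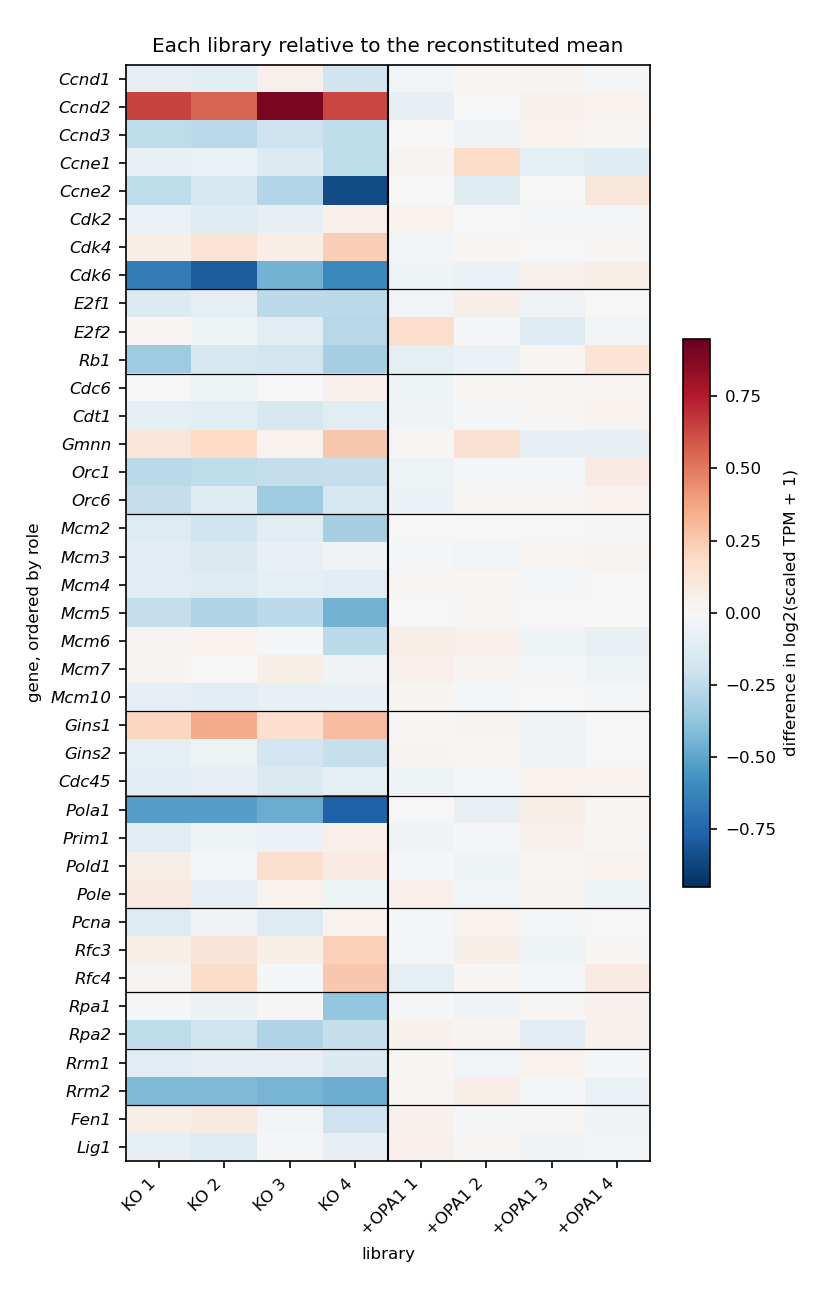
Each library's log2(scaled TPM + 1) minus the mean of the reconstituted libraries, for the 39 genes ordered by role, blue for lower and red for higher. The 4 Opa1-/- libraries (KO 1 to KO 4) share the colour of Ccnd2, Cdk6, Pola1 and Rrm2, while Ccne2 and Rpa1 are darkest in KO 4 alone.

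Opa1-/- library 4 was the lowest of its group for 15 of the 39 genes (38.5%), close to the 36.4% of all genes tested for which it was lowest. Without it, 3 genes were called higher and 17 lower. Ccne2, Mcm6, Rpa1 and Fen1 were among those lowest there.

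Some of the lower calls lay on chromosomes that were lower as a whole. The median log2 difference of all genes on a chromosome, over genes with a mean log2 value above 3, was -0.36 for X, -0.18 for 8, -0.17 for 14 and -0.15 for 4, and it was 0.11 for 7. Chromosome 12, which holds Rrm2, was at -0.0997, just short of the limit of -0.1 set here for a low chromosome. The 4 chromosomes below that limit held 10 of the 39 genes and 8 of the 15 lower calls (Pola1 on X, Cdt1, Orc6, Mcm5 and Gins2 on 8, Rb1 on 14, Orc1 and Rpa2 on 4). The other 29 genes held 7. Of the 39 genes, 30 were below the median of their own chromosome. With each chromosome's median removed, 2 of the 39 were called higher and 9 lower, where 15.3% and 11.2% of all genes tested were. The median of the 39 was then -0.06. Called lower in both were 6 genes: Ccnd3, Cdk6, E2f1, Pola1, Rrm1 and Rrm2.

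Of the 8 lower calls on the low chromosomes, that of Pola1 alone was kept in that calculation, at a smaller difference. Pola1 was at -0.23 (adjusted p = 0.0296), Mcm5 at -0.11 (adjusted p = 0.0912), Orc1 and Rpa2 at -0.08 (adjusted p = 0.173 and 0.205), Rb1 at -0.07 (adjusted p = 0.496) and Orc6 at -0.02 (adjusted p = 0.757). Cdt1 and Gins2 changed sign, to 0.08 (adjusted p = 0.123) and 0.05 (adjusted p = 0.41). Mcm2 and Mcm4, on other chromosomes, also lost their calls (adjusted p = 0.0602 and 0.224). Cdk6, on chromosome 5, stayed called at -0.69 (adjusted p = 0.0003), and Ccnd2 at 0.71 (adjusted p = 0.0002). Rrm2, on chromosome 12, stayed called at -0.33 (adjusted p = 0.0003), a smaller difference than the -0.44 as first run. Ccnd1, Ccne1 and Lig1, all on chromosome 7, did not pass the test as first run and were called lower in that calculation, at -0.20 (adjusted p = 0.0216), -0.24 (adjusted p = 0.0307) and -0.19 (adjusted p = 0.0052). The cause of the chromosome shifts was not tested.

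**Figure D5:**
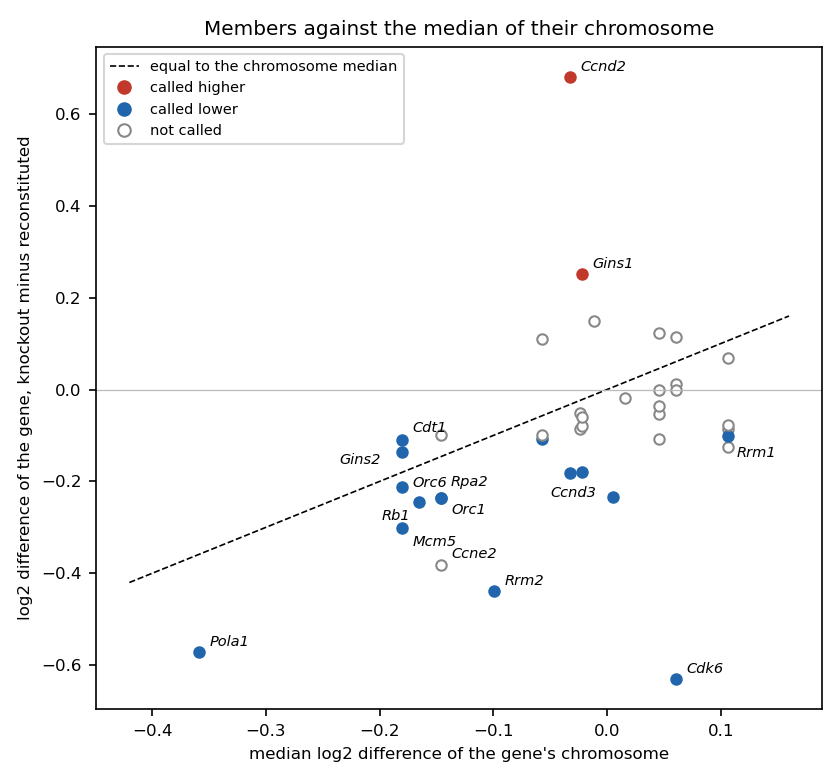
Log2 difference of each of the 39 genes against the median log2 difference of all genes on its chromosome, with a dashed line where they are equal. 30 of the 39 points lie below the line, and Orc6, Cdt1 and Gins2 lie near it on chromosome 8.

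Other genes of the same pathway were called in both directions, at shares near those of all genes. Of 79 further replication and G1/S genes, all tested, 11 were higher (13.9%), 17 lower (21.5%) and 51 did not pass the test. Their median was -0.03. Over all genes 16.2% were higher and 16.8% lower, and 33.0% were called in all, beside 35.4% of the 79. On TPM as deposited 3 were higher and 13 lower, where 1529 of all 14272 genes tested were lower. With the exon length and GC trend removed 18 were higher and 18 lower. The higher count was 7 without reconstituted library 2, 6 without library 3 and 7 without library 4. Of 7 origin recognition and licensing partners 1 was higher, Mcm9 at 10.2 ± 0.186 against 8.77 ± 0.396 (log2 difference 0.20, adjusted p = 0.0151, lost without reconstituted library 4 at 0.0511).

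Of 13 genes of origin firing and fork protection, 3 were higher and 4 lower. Gins3, a partner of Gins1 and Gins2 in the GINS complex, was at 23.0, 23.5, 22.7 and 21.8 in Opa1-/- and 31.0, 33.0, 30.5 and 33.3 in reconstituted libraries (log2 difference -0.47, SE 0.05, adjusted p = 0.00012). The groups did not overlap, and with its chromosome's median removed it was at -0.28 (adjusted p = 0.0018). Clspn, an adaptor of the replication checkpoint, was at -0.36 (adjusted p = 0.00064) and Wdhd1, which ties polymerase alpha to the helicase, at -0.33 (adjusted p = 0.00098). With chromosome medians removed Clspn was at -0.20 (adjusted p = 0.0124) and Wdhd1 at -0.16 (adjusted p = 0.0266), and the Clspn call was lost with the exon length and GC trend removed as well (-0.14, adjusted p = 0.0654). Mtbp, which helps to fire origins, rose from 34.1 ± 0.821 to 43.1 ± 3.34 (log2 difference 0.33, adjusted p = 0.0022). Gins1 was thus higher while Gins2 and Gins3 were lower. Gins4, of the same complex, was called lower too, a call lost on TPM as deposited (adjusted p = 0.104). With chromosome medians removed the calls of Gins2 and Gins4 were lost. Their signs turned, to 0.05 (adjusted p = 0.41) and 0.04 (adjusted p = 0.457).

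Of 19 polymerase subunits, clamp loaders and nucleases, 4 were higher and 3 lower. Rnaseh2b, a subunit of ribonuclease H2, was at -0.31 (adjusted p = 0.0016, and -0.14 with adjusted p = 0.0626 with its chromosome's median removed). Pole3, an accessory subunit of polymerase epsilon, was at -0.30 (adjusted p = 0.00069, and -0.14 with adjusted p = 0.0213 in that calculation), and Chtf18, of an alternative clamp loader, at -0.24 (adjusted p = 0.0019). Rfc2 rose from 42.5 ± 1.04 to 49.6 ± 0.54 (log2 difference 0.22, adjusted p = 0.0015). Of 6 genes of chromatin assembly at forks, 2 were lower. Asf1b, a histone chaperone, was at 31.0, 30.6, 30.4 and 29.9 in Opa1-/- and 44.6, 46.0, 44.7 and 44.6 in reconstituted libraries (log2 difference -0.55, SE 0.03, adjusted p = 1.6e-05, and -0.36 with its chromosome's median removed). The groups were far apart beside the spread within them. Hells, a chromatin remodeller, was at -0.11 (adjusted p = 0.0351), and its call was lost under the replicate block (0.0651) and without any one of Opa1-/- libraries 1 and 3 and the 4 reconstituted libraries (0.0613 to 0.0949). Of 7 genes of deoxynucleotide supply, Samhd1, which degrades deoxynucleotides, was lower (-0.34, adjusted p = 0.0021), Rrm2b, the p53-induced small subunit, was higher (0.21, adjusted p = 0.0188, lost without reconstituted library 2 at 0.0586 or library 4 at 0.0581), and 5 did not pass the test.

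The remaining E2F, DP and RB genes had 4 lower and 0 higher of 10. E2f7, a repressor among the E2F genes, fell from 17.7 ± 0.365 to 12.5 ± 1.38 (log2 difference -0.48, adjusted p = 0.0012). E2f4, which represses with the RB relatives p107 and p130, fell from 163 ± 2.05 to 128 ± 9.38 (-0.36, adjusted p = 0.0011). Rbl2, which encodes p130, was at -0.39 (adjusted p = 0.0082) and Tfdp1, a DP partner of the E2F proteins, at -0.25 (adjusted p = 0.00066). E2f4, Rbl2 and Tfdp1 lie on chromosome 8, and with chromosome medians removed they were at -0.17 (adjusted p = 0.0308), -0.20 (adjusted p = 0.0989) and -0.06 (adjusted p = 0.19), against -0.52 for E2f7 on chromosome 10 (adjusted p = 0.00074). E2f3, E2f5, E2f6, E2f8, Tfdp2 and Rbl1 did not pass the test and lay between -0.03 and 0.10.

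Among the 7 kinase inhibitors, 2 were higher and 1 lower. Cdkn1c, which encodes p57, was at 4.17, 4.64, 4.83 and 5.38 in Opa1-/- and 1.80, 2.33, 2.58 and 1.92 in reconstituted libraries. It was low in both groups and had the widest difference of any gene named here (log2 difference 0.87, SE 0.10, adjusted p = 0.00036). Cdkn1b, which encodes p27, was at 79.6 ± 2.64 and 72.0 ± 1.57 (0.14, adjusted p = 0.0165, lost without reconstituted library 3 at 0.063). Cdkn1a, which encodes p21, fell from 29.1 ± 2.34 to 24.6 ± 1.07 (-0.23, adjusted p = 0.0177). Cdkn2a was abundant in both groups, at 1005 ± 96.1 and 1052 ± 35.8 (adjusted p = 0.453), and Cdkn2b, Cdkn2c and Cdkn2d did not pass the test (0.13, -0.17 and 0.06). Of 10 other G1/S regulators 2 were lower, Ccna2, the S phase cyclin A gene (-0.28, adjusted p = 0.0011), and Skp2, the ubiquitin ligase subunit that targets p27 (-0.18, adjusted p = 0.004).

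For comparison with the next phase of the cycle, 22 mitosis genes were counted. Of these 1 was higher, Ccnb2, and 12 were lower, with a median of -0.15, where 16.2% of all genes tested were higher and 16.8% lower. With chromosome medians removed 0 were higher and 13 lower, where 15.3% and 11.2% of all genes were. The lower count was 4 on TPM as deposited, where 1529 of all 14272 genes tested were lower, and 6 without both libraries numbered 3. Cenpe fell from 49.8 ± 1.33 to 40.7 ± 1.73 (-0.29, adjusted p = 0.0010), Cdc20 from 251 ± 1.26 to 207 ± 9.33 (-0.28, adjusted p = 0.00082) and Mki67 from 116 ± 4.17 to 96.2 ± 4.60 (-0.26, adjusted p = 0.0025). Ccnb2 was at 204 ± 10.8 and 184 ± 5.87 (0.14, adjusted p = 0.038), a call lost without Opa1-/- library 2 (0.0803) or any one of reconstituted libraries 1, 3 and 4 (0.0865 to 0.104). A difference between the mitosis genes and the 39 genes was not tested.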

How the data were processed

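RNA sequencing covered 4 Opa1-/- and 4 reconstituted libraries. Per the labels' protocols the kits were RNeasy Plus for RNA and NEBNext Ultra II for libraries. The tools named in the submitters' processing notes are STAR 2.5.2b, Subread 1.5.2, featureCounts and bcl2fastq 2.17, and the notes list mm10 and GRCh38 as builds without a role. Strand handling was not given in the sources used here. Per the file headers the authors deposited TPM values for 49315 genes per library.

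Genes were tested if at least 4 libraries held 1 TPM or more, which left 14272. Over these genes libraries were brought to a common scale by an unweighted trimmed mean of log ratios, with trims at each end of 30% for ratios and 5% for levels. The result is called scaled TPM and given as mean ± SD with n = 4. Log2(scaled TPM + 1) was tested with limma-trend (limma 3.58.1, R 4.3.3), two-sided, with Benjamini-Hochberg adjustment over all 14272 genes. On simulated data the procedure recovered 16% of 1.25-fold changes, 76% of 1.5-fold, 96% of 2-fold and 100% of 4-fold changes. Of its calls there 4% were false. The spread in the simulation was set beforehand and may differ from that of these libraries. A gene that did not pass the test may thus still differ by a small amount. Tables and plots used pandas 2.3.3, numpy 2.4.6 and matplotlib 3.10.9 in Python 3.11.15. Positions, exon overlaps, exon lengths and GC content came from GENCODE M21 (GRCm38), which held 49056 of the genes, and promoter windows from RefSeq. Overlaps are shares of exon bases, and repeats are shares of 50-base words of the longest transcript found in another gene. Reads were recovered from TPM times exon length. Of values under 20 reads, 94.4% to 94.8% came out whole within 0.05 of a read.

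Libraries with the same replicate number deviated together from their group means (r = 0.25, 0.22, 0.32 and 0.12 over 9416 genes, each highest with its own number). The test behind the reported calls did not use this pairing. The replicate block, run as an alternative, did. By their recovered reads each pair of libraries within a group differed by more than sampling noise, and all 8 were kept as separate samples. All 39 genes are named. Of the 79 further pathway genes up to 4 called genes a role with the largest difference are named, with the kinase inhibitors and the E2F, DP and RB genes by value, and of the mitosis genes the 3 called with the largest difference. Outside this rule Ccnb2 is named as the only mitosis gene called higher, and Gins4 as a further gene of the GINS complex. The 39 genes and all lists were chosen with earlier results of these data known. Alternatives covered scaling, filters, the pseudocount, limma-voom, the replicate block, exon length and GC, chromosome medians, and each library left out.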

Additional observations from a re-analysis of the deposited data

Results flagged for a closer look

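In 6 of the 150 groups of 4 libraries checked, 1 library stood apart from the other 3 by more than Dixon's 95% critical value. Chance flags about 5% of groups. Among the 39 genes this held for Rpa2, at 54.3 scaled TPM in reconstituted library 3, the lowest of its group. Among the further pathway genes it held for Wdhd1 in reconstituted library 1 (27.4, the lowest), Chtf18 in reconstituted library 2 (56.9, the lowest) and Asf1b in reconstituted library 2 (46.0, the highest). Mki67 was at 89.4 in Opa1-/- library 2, the lowest of its group, and Opa1 at 15.6 in reconstituted library 1, the highest.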

How the results depend on the processing

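Among the 24 alternatives, 2 were chosen after seeing the data: scale factors from all genes listed, and chromosome medians removed together with the exon length and GC trend. Of the 17 calls, 6 held under all 24, and 12 of the 39 genes were called under none. On TPM as deposited 10 of the 39 genes were called (8 lower), 3 pathway genes were higher, 4 mitosis genes were lower and 0 higher, and 1529 of all genes were lower. With chromosome medians removed 11 of the 39 were called (9 lower), and without both libraries numbered 3, 11 were called (9 lower), with 6 pathway genes higher and 6 mitosis genes lower. With the exon length and GC trend removed 4 of the 39 and 18 pathway genes were higher, and with the replicate block added 4 and 20 were. The single mitosis call on the higher side, Ccnb2, was lost (0 higher) on TPM as deposited, with median-of-ratios scaling, without the filter, without the mean-variance trend, with chromosome medians removed (with or without the exon length and GC trend), without both libraries numbered 3 and with scale factors from all genes listed. Leaving out each library in turn gave 9 to 17 of the 39 lower and 12 to 20 called, 6 to 12 pathway genes higher, and 0 to 1 mitosis genes higher.

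The replicate block alone gave 14 calls among the 39 (12 lower). It ended those of Rb1, Cdt1 and Rrm1, and of Hells among the other genes named, and changed no other call of a named gene.

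These signs turned, as log2 differences. Exon length and GC trend removed, with or without the replicate block: Cdk2 0.012, Cdc6 0.054, Pole 0.081, Hells 0.0065, E2f8 0.026, Rbl1 0.061 and Cdkn2d -0.016. Chromosome medians removed: E2f2 0.056, Cdt1 0.077, Mcm7 -0.049, Gins2 0.052, Gins4 0.044, Pold1 -0.045, E2f5 0.015, Rbl1 0.013, Cdkn2a 0.084 and Cdkn2d -0.036. Both removed: E2f2 0.041, Cdc6 0.0032, Cdt1 0.024, Mcm7 -0.053, Gins2 0.054, Pold1 -0.082, Rbl1 0.059, Cdkn2d -0.13 and Opa1 0.0064. Upper-quartile scaling: Cdc6 0.0079, Pole 0.0075 and Rbl1 0.0035. Without both libraries numbered 3: Cdc6 0.0050, Mcm7 -0.0091, E2f5 0.019 and E2f6 -0.016. Mcm7 was at -0.0054 with median-of-ratios scaling and with scale factors from all genes listed. Each library left out in turn gave ranges across 0 for Cdc6 (-0.016 to 0.018), Mcm6 (-0.077 to 0.018), Mcm7 (-0.0053 to 0.028), Pole (-0.028 to 0.028), Fen1 (-0.052 to 0.041), E2f5 (-0.055 to 0.023), E2f6 (-0.015 to 0.095), E2f8 (-0.055 to 0.0069) and Rbl1 (-0.020 to 0.0060). Of these genes Cdt1, Gins2, Gins4 and Hells were called as reported. The causes were not tested.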
